A study of Mus musculus with 7 samples.

Results

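This account concerns mouse embryonic fibroblasts (MEFs) kept in 2 culture media, iCD1 and FBS. Its members are all 19938 genes that the array measured through a probe set with a single gene symbol. They were compared between 1 array of MEFs in iCD1 and 1 array of MEFs in FBS, which are 2 of the 7 arrays in the series. Both fibroblast cultures came from embryos of 13.5 days post coitum on the 129/OG2 background, where OG2 is a green fluorescent reporter of Oct4, the gene Pou5f1. FBS stands for foetal bovine serum. The medium called iCD1 is a chemically defined medium made for reprogramming fibroblasts into pluripotent cells, and no source used here gives its composition or the time the fibroblasts spent in it. The labels give both samples as fibroblasts with no infection named as cell type, although a description shared by every sample speaks of iPS cells on day 3 after infection.

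The other 5 arrays served as a scale. Of these, 3 were in KSR medium and held induced pluripotent stem (iPS) cells of lines O4-1, O4-2 and O4-4, each a line of its own from fibroblasts that received Oct4 by infection. A further array held line O4-1 in N2B27 with 2i, which blocks the kinases MEK and GSK3, and the last held OG2 embryonic stem (ES) cells in the same 2i medium. These 5 are called the pluripotent arrays below. All values are log2 expression, so a difference of 1.0 is 2-fold. With 1 array per medium no difference between the media has a replicate check, and none was tested. The 3 KSR lines were the only replicated group, and the range of a gene over these 3 lines, which differ by line and not by medium, is printed as a yardstick. Apart from marker lists, where levels are set beside a median as a description, levels are compared only within a gene. Precision is limited by having few arrays.

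Fibroblasts in serum are flat, spread cells with thick bundles of actin. Serum drives the factor SRF, with its actin-sensing partner MRTF, and the YAP and TEAD factors, and these switch on genes of contraction and adhesion. During reprogramming a fibroblast loses its mesenchymal genes and gains epithelial and pluripotency genes. The comparison asks which genes differed between the media and on which side of the pluripotent arrays they came to lie.

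Both cultures carried the marks of fibroblasts. The 33 measured fibroblast and mesenchymal genes had median levels of 8.79 in FBS and 9.33 in iCD1, against 5.69 to 6.69 on the pluripotent arrays. Not every member stood apart, as in FBS Lum and Dcn, at 6.06 and 6.78, lay within the range of the pluripotent arrays. Single members are given as examples. Col1a2, a chain of type I collagen, was at 12.13 in FBS and 12.11 in iCD1, against 8.37 to 9.76 on the pluripotent arrays. Prrx1, a mesenchymal homeobox gene, was at 10.14 in FBS and 9.88 in iCD1, and Vim, which encodes vimentin, was at 11.94 and 12.04. Lists of markers of other cell types had medians below the median of all genes on both arrays. This sets levels of different genes beside each other, and low values were not separated from background. It therefore does not show that such cells were absent. The 18 macrophage markers had median levels of 4.45 in FBS and 4.34 in iCD1, the 13 endothelial markers 4.49 and 4.29, the 5 erythroid markers 3.89 and 4.08 and the 11 keratinocyte markers 4.49 and 4.37. The 11 skeletal muscle markers had median levels of 4.75 and 4.93, the 12 neural and glial markers 4.49 and 4.63 and the 13 cartilage and bone markers 4.58 and 4.22. Single members, picked out after their values were seen, stood well above their list's median: Col2a1, a cartilage collagen, at 8.98 in FBS and 7.66 in iCD1, the neuronal gene Stmn2 at 8.23 and 7.20, Sox9 at 6.99 and 6.79, and in iCD1 Nefl at 6.47 and Lyz2 at 6.83. Their part in the differences between media was not tested. Xist, transcribed from the inactive X chromosome of females, was at 7.46 in FBS and 8.02 in iCD1, and the Y-linked gene Eif2s3y was at 6.35 and 6.82. Signal of both sexes was thus present in both cultures, and the 5 sex-linked genes measured were all higher in iCD1 by 0.25 to 0.91. No source used here says whether the cultures came from the same embryos.

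A small share of genes differed between the media by 2-fold or more. Of the 19938 genes, 339 (1.7%) were 2-fold or more higher in iCD1 and 199 (0.998%) were 2-fold or more lower, together 538 (2.7%). Between KSR lines the same count was 122 genes for O4-2 against O4-1 (0.612%), 310 for O4-4 against O4-1 (1.55%) and 564 for O4-4 against O4-2 (2.83%). The fibroblast pair thus lay within the span of pairs of iPS lines grown in 1 medium, and its count alone does not set the media apart from different lines. For 507 of the 538 genes (2.54% of all genes) the difference between the media exceeded that gene's range over the 3 KSR lines. The 2-fold cut favours this result, because few genes differed by 2-fold between KSR lines, so the count is a description only. At any size of difference 36.3% of all genes exceeded that range, which is not a like comparison. The median difference over all genes was -0.02, with 44.8% of genes higher in iCD1 and 53% lower. Around the 2-fold mark, Ctsl, Hunk and Pamr1 lay just inside at 1.00 to 1.01 and Muc1, Plin2 and Ifit2 just outside at 1.00.

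**Figure D1:**
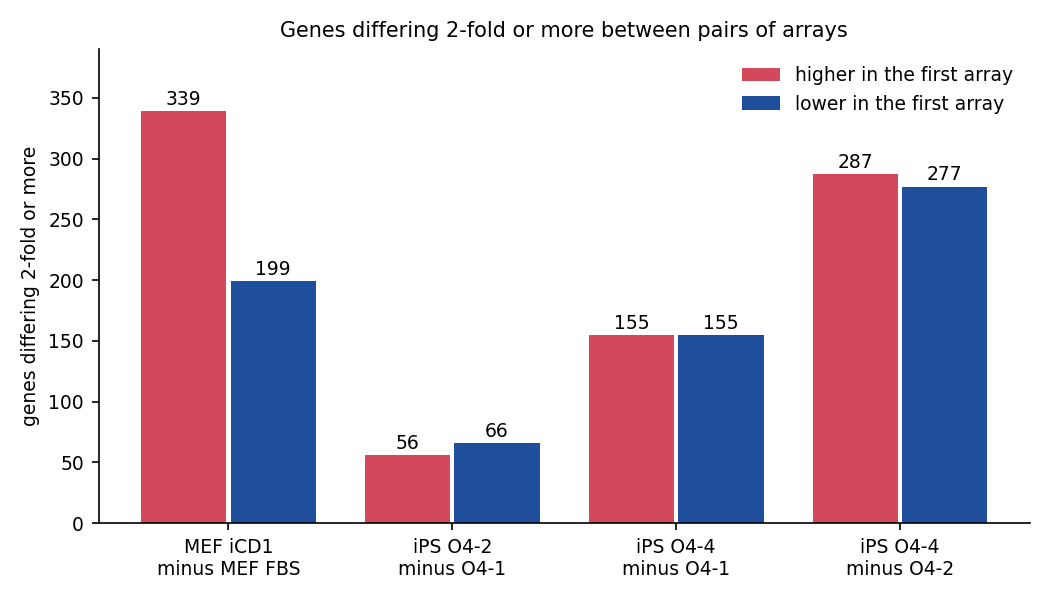
Number of genes differing 2-fold or more between pairs of arrays, with genes higher (red) and lower (blue) in the first array of each pair. MEFs in iCD1 against FBS gave 339 higher and 199 lower genes, and the KSR pairs gave between 122 and 564 genes in both directions together.

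The largest difference was that of Lum, which encodes the collagen-binding proteoglycan lumican and was at 6.06 in FBS and 9.94 in iCD1. The KSR lines O4-1, O4-2 and O4-4 had 5.94, 5.37 and 6.87, with 4.56 in iPS cells in 2i and 6.37 in ES cells. It was 14.7-fold higher in iCD1 and left the range of the pluripotent arrays in which it lay in FBS. Cadps, a gene of dense-core vesicle release, was 14.3-fold higher, at 3.71 in FBS and 7.54 in iCD1, and Dpt, which encodes the matrix protein dermatopontin, was 13.7-fold higher, at 3.75 and 7.53. In the other direction Fgf7, a growth factor that fibroblasts send to epithelial cells, was at 9.35 in FBS and 5.71 in iCD1, with 5.04, 5.37, 4.87, 4.17 and 4.53 on the pluripotent arrays in the same order. It was 12.4-fold lower in iCD1, which placed it just above all 5 of them. The other genes among the 20 largest differences upwards ran from 8.22-fold for Car2, a carbonic anhydrase, to 5.03-fold for Klhl4. They included the calpain family gene Capn6 (7.62-fold), the mitochondrial acyl-CoA synthetase gene Acss3 (7.37-fold), Lix1 (7.35-fold), the carboxypeptidase gene Cpm (5.96-fold) and Aldh1l1, a folate enzyme (5.82-fold). Apela, a ligand of the apelin receptor, was 5.69-fold higher, the carbonic anhydrase gene Car3 5.49-fold, the kinase gene Nrk 5.45-fold, Lratd1 5.28-fold and Tmem132c 5.22-fold. Downwards the series ended at 3.93-fold for Ddah1, and it held the aggrecan-cleaving protease gene Adamts5 (6.58-fold), the annexin gene Anxa8 (5.10-fold), the regulator of G protein signalling Rgs4 (4.75-fold), the connexin gene Gjb2 (4.60-fold), the Wnt enhancer Rspo2 (4.46-fold) and Coch.

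Contractile genes and targets of SRF were mostly lower in iCD1. Of 39 measured genes 33 were lower and 6 higher, 12 were 2-fold or more lower and 0 were 2-fold or more higher, and the median difference was -0.70, against -0.02 for all genes. Between KSR lines the median of the same list was 0.28, -0.14 and -0.26, and for 27 of the 39 genes the difference between media exceeded the range of these lines. Acta2, the smooth muscle actin that marks myofibroblasts, was at 12.48 in FBS and 10.55 in iCD1, with 8.18, 9.12, 7.79, 6.19 and 6.18 on the pluripotent arrays. It was 3.82-fold lower in iCD1 and still above all 5. Actg2, the enteric smooth muscle actin, was at 8.11 in FBS and 5.29 in iCD1, a 7.03-fold difference, with 4.28, 4.52, 3.65, 3.85 and 3.83 on the pluripotent arrays. Tagln, which encodes the actin-bundling protein SM22, was at 9.85 in FBS and 7.23 in iCD1, with 6.26, 7.46, 5.71, 4.84 and 4.62 on the pluripotent arrays. Its 6.13-fold difference brought it into the range of these arrays, below line O4-2. Cnn1, which encodes calponin, was likewise 6.58-fold lower and came into that range, from 7.56 in FBS to 4.84 in iCD1, against 3.87 to 5.50 on the pluripotent arrays.

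Other members of the contractile list were lower as well. Myl9, the regulatory light chain of non-muscle and smooth muscle myosin, was at 9.27 in FBS and 6.95 in iCD1, with 6.27, 6.92, 5.45, 4.67 and 5.44 on the pluripotent arrays, so that in iCD1 it lay just above line O4-2. The adaptor gene Sorbs2 was 5.37-fold lower and reached the range of the pluripotent arrays. Fhl1, a LIM-domain protein gene, was 3.33-fold lower, at 7.95 in FBS and 6.22 in iCD1, with 5.86, 6.28, 5.60, 5.75 and 5.87 on the pluripotent arrays. The actin cross-linker gene Actn1 was 2.63-fold lower, the smooth muscle myosin gene Myh11 2.34-fold, Lpp 2.32-fold, Tagln2 2.31-fold and the tropomyosin gene Tpm2 2.10-fold. Lpp had another pair of probe sets, which differed in the same direction, from 8.49 to 7.49 and from 4.18 to 3.93. The cardiac actin gene Actc1 was at 8.15 and 8.21 and the cytoplasmic actin gene Actb at 12.95 and 12.69, so the actins differed unequally. Srf itself was at 7.55 in FBS and 7.41 in iCD1. In all, 34 of the 39 genes lay closer to every pluripotent array in iCD1 than in FBS and 4 lay farther, beside 23.6% closer and 34.9% farther of all genes.

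**Figure D2:**
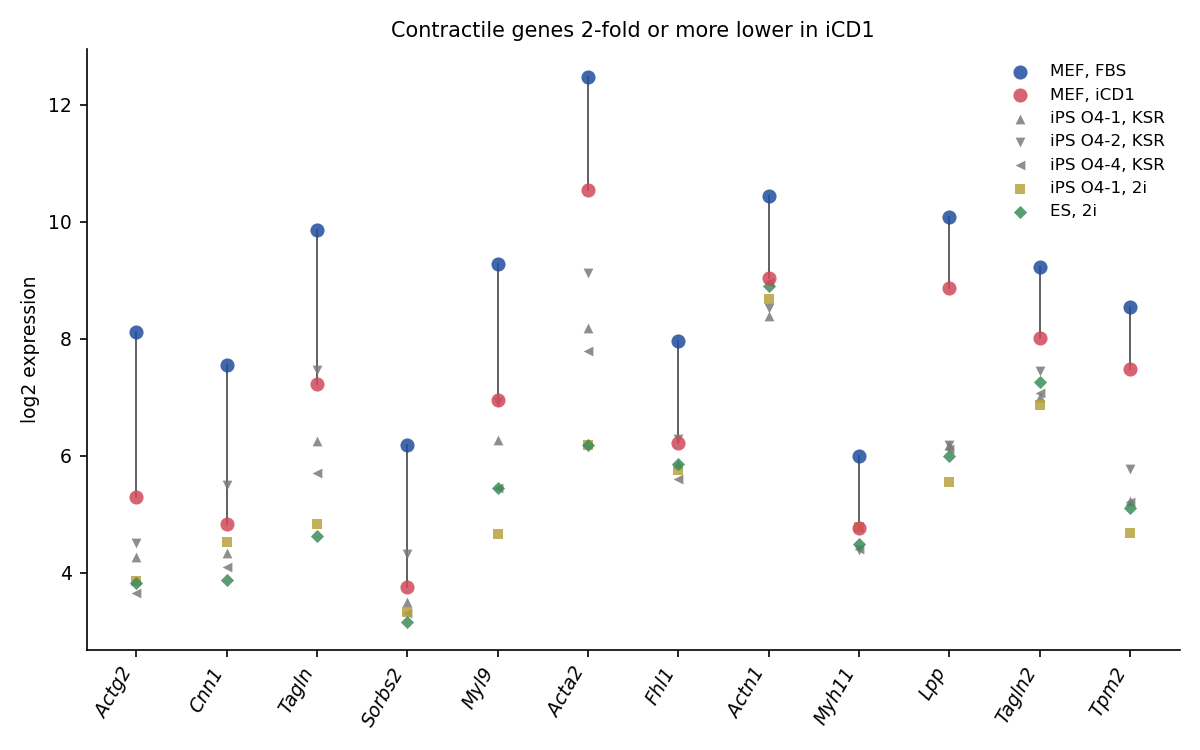
Log2 expression of the 12 contractile genes that were 2-fold or more lower in iCD1, on all 7 arrays; a line joins the FBS (blue) and iCD1 (red) fibroblasts and smaller symbols are the pluripotent arrays. Cnn1, Tagln, Sorbs2, Fhl1 and Myh11 came into the span of the pluripotent arrays in iCD1, whereas Acta2, Lpp and Tpm2 stayed above it.

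SRF binds a sequence called the CArG box (CC, then 6 bases of A or T, then GG, which reads alike on both strands). In the 250 bases before the gene start in RefSeq (GRCm38.p6), 1.62% of 27025 genes had such a box, and 8 of the 34 contractile genes with a promoter entry had one, namely Acta1, Actc1, Cnn2, Fhl1, Fhl2, Myl9, Srf and Vcl. The stretches of Myl9, Fhl1, Cnn2 and Vcl are shown because among the 8 these had the largest falls in iCD1. That of Actc1 is shown because it was not lower. Acta1, Srf and Fhl2 were lower by less, with differences of -0.30, -0.14 and -0.13, and are not shown. Capitals mark the box.
Myl9: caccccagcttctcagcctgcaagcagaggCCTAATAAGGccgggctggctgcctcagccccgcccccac
Fhl1: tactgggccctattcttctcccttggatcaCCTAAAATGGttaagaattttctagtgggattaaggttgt
Cnn2: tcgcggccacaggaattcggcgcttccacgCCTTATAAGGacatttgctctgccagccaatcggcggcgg
Vcl: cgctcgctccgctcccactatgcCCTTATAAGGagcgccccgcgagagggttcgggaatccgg
Actc1: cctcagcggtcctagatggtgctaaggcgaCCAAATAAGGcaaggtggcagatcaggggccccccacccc
They lie at chr2:156775273-156775342 on the plus strand for Myl9, chrX:56779551-56779620 on the plus strand for Fhl1, chr10:79988514-79988583 on the plus strand for Cnn2, chr14:20929148-20929210 on the plus strand for Vcl and chr2:114052883-114052952 on the minus strand for Actc1. Cnn2 was 1.65-fold lower in iCD1 and Vcl, which encodes vinculin, 1.63-fold, whereas Actc1 differed by 0.06 with the same kind of box. A match in letters is a description and no evidence of binding. Because the list was chosen to hold SRF targets, a share above that of all genes can follow from this choice and is no separate support. The same holds for the motifs of the other lists below.

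Targets of YAP and TEAD differed less evenly. Of 22 genes 17 were lower and 5 higher in iCD1, of which 4 lower and 1 higher ones passed 2-fold. The median was -0.14, against 0.01, -0.04 and -0.04 for the KSR pairs. Ccn1 was nearly level, at 11.13 in FBS and 11.08 in iCD1. Ankrd1, a classic target, was at 8.27 in FBS and 5.63 in iCD1, with 4.07, 4.55, 3.91, 4.01 and 4.39 on the pluripotent arrays, a 6.20-fold difference. Ccn2, which encodes the matricellular protein CTGF, was 3.74-fold lower, at 9.39 in FBS and 7.49 in iCD1, and in iCD1 it lay below all 5 pluripotent arrays, which ran from 7.76 to 9.37. The tissue factor gene F3 was 2.79-fold and Crim1 2.72-fold lower. Tgfb2, a ligand of the TGF-beta family that also stood in this list, went the other way, from 7.24 to 9.30, a 4.16-fold difference.

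Matrix genes differed one by one and not as a group. Of 33 fibroblast and mesenchymal genes 18 were higher and 15 lower in iCD1, of which 7 higher and 1 lower ones passed 2-fold, and their median of 0.10 lay within the span of the KSR pairs (0.09, 0.39 and 0.25). Dcn, which encodes decorin, was at 6.78 in FBS and 9.61 in iCD1, with 6.63, 6.99, 7.54, 5.91 and 7.25 on the pluripotent arrays, a 7.13-fold difference that took it out of their range. The protease gene Fap was 3.65-fold higher, the collagen genes Col6a3 and Col3a1 3.32-fold and 2.58-fold, the receptor gene Pdgfra 2.58-fold and the gelatinase gene Mmp2 2.45-fold. Lox, which encodes the collagen cross-linking enzyme lysyl oxidase, was 2.57-fold lower.

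Families of matrix proteins split. Among the small leucine-rich proteoglycans Lum, Dcn and Kera (4.29-fold) were higher in iCD1 and Fmod, which encodes fibromodulin, was 3.80-fold lower, while Bgn was at 10.76 and 10.44 and Aspn at 7.44 and 7.37. Among 36 collagen chains 3 were 2-fold or more higher and 3 lower, together 16.7% beside 2.7% of all genes. Col18a1, the source of endostatin, was at 6.15 in FBS and 8.32 in iCD1, and Col8a1 was at 8.71 and 6.79, whereas Col1a1 was at 12.61 and 12.45. Col2a1 (values above) was lower in iCD1, as was Col10a1, at 5.99 and 4.72. Of the elastic fibre genes Fbln5, which helps to assemble elastin, was 4.42-fold lower and Mfap5 4.17-fold lower, while Fbln1 (2.40-fold) and Mfap4 (2.10-fold) were higher. Among matricellular genes Thbs1, which encodes thrombospondin, was 3.25-fold lower, Ccn5 2.78-fold, the Smoc family genes Smoc1 and Smoc2 4.89-fold and 2.79-fold, whereas Sparcl1 was 4.46-fold and Ccn3 2.37-fold higher. Smoc1 went away from the pluripotent arrays, at 6.52 in FBS, 4.24 in iCD1 and between 6.71 and 7.21 on the 5 arrays.

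Proteases of the matrix and their inhibitors, which were counted in 1 list, differed in both directions. Of the 25 genes 16 were higher and 9 lower in iCD1, 10 and 4 of them by 2-fold or more, with a median of 0.66 against 0.25, 0.17 and -0.17 for the KSR pairs. The stromelysin gene Mmp3 was 4.31-fold higher, the collagenase gene Mmp13 3.25-fold, Mmp11 3.05-fold, Mmp10 2.67-fold and the elastase gene Mmp12 2.22-fold. Ctsk, which encodes the collagen-degrading cathepsin K, was 3.73-fold higher, from 5.85 to 7.75. The urokinase system was split, with Plau 2.68-fold and its receptor gene Plaur 3.63-fold lower and the tissue activator gene Plat 2.52-fold higher. The inhibitor gene Timp3 was 2.30-fold lower. Among 19 integrins the collagen receptor chain Itga11 was 2.82-fold lower, and Itga4 and Itga8 were 2.53-fold and 2.29-fold higher.

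Lysosomal genes were higher in iCD1 without exception in the list used. All 19 measured genes were higher, 5 of them by 2-fold or more, with a median of 0.68 against 0.19, 0.22 and 0.05 for the KSR pairs, and for 14 of them the difference exceeded the range of the KSR lines. Gpnmb, a lysosomal membrane glycoprotein gene, was at 5.57 in FBS and 7.86 in iCD1, with 4.25, 4.13, 4.33, 4.41 and 4.75 on the pluripotent arrays, a 4.92-fold difference. Lipa, the acid lipase that frees cholesterol from taken-up lipoproteins, was at 7.83 in FBS and 9.43 in iCD1, against 4.80 to 5.84 on the pluripotent arrays. The cathepsin genes Ctsb and Ctsl were 2.84-fold and 2.01-fold higher and the granulin gene Grn 2.19-fold. None of the 19 lay closer to the pluripotent arrays in iCD1 and 17 lay farther, beside 23.6% closer and 34.9% farther of all genes. Of the macrophage markers, which share lysosomal genes, Lyz2 was at 4.99 in FBS and 6.83 in iCD1 and Cd68 at 5.78 and 6.57, while the defining receptor gene Csf1r was at 4.97 and 4.46 and Ptprc, the common leukocyte antigen, at 4.01 and 3.70. In the whole macrophage list 6 of 18 were higher in iCD1 and 12 lower, with a median of -0.22, and its part in the lysosomal difference was not tested.

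Lysosomal genes share a motif with the core TCACGTGA, which reads alike on both strands and is bound by TFEB. It stood in the 250 bases before the start of 0.907% of all genes and of 4 of the 17 lysosomal genes with a promoter entry, which were Ctsa, Ctsd, Gla and Mcoln1. The stretches of Ctsa, which encodes cathepsin A, and Mcoln1, a lysosomal calcium channel, are shown as examples, with the core in capitals.
Ctsa: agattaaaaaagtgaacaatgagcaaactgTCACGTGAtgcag
Mcoln1: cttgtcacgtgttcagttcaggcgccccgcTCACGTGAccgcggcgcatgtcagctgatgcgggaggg
They lie at chr2:164833730-164833772 and chr8:3500443-3500510 on the plus strand. Ctsa was 1.68-fold and Mcoln1 1.42-fold higher in iCD1, and the cathepsin D gene Ctsd, with the same core, 1.33-fold. The 5 lysosomal genes that were 2-fold higher were not among the 4.

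**Figure D3:**
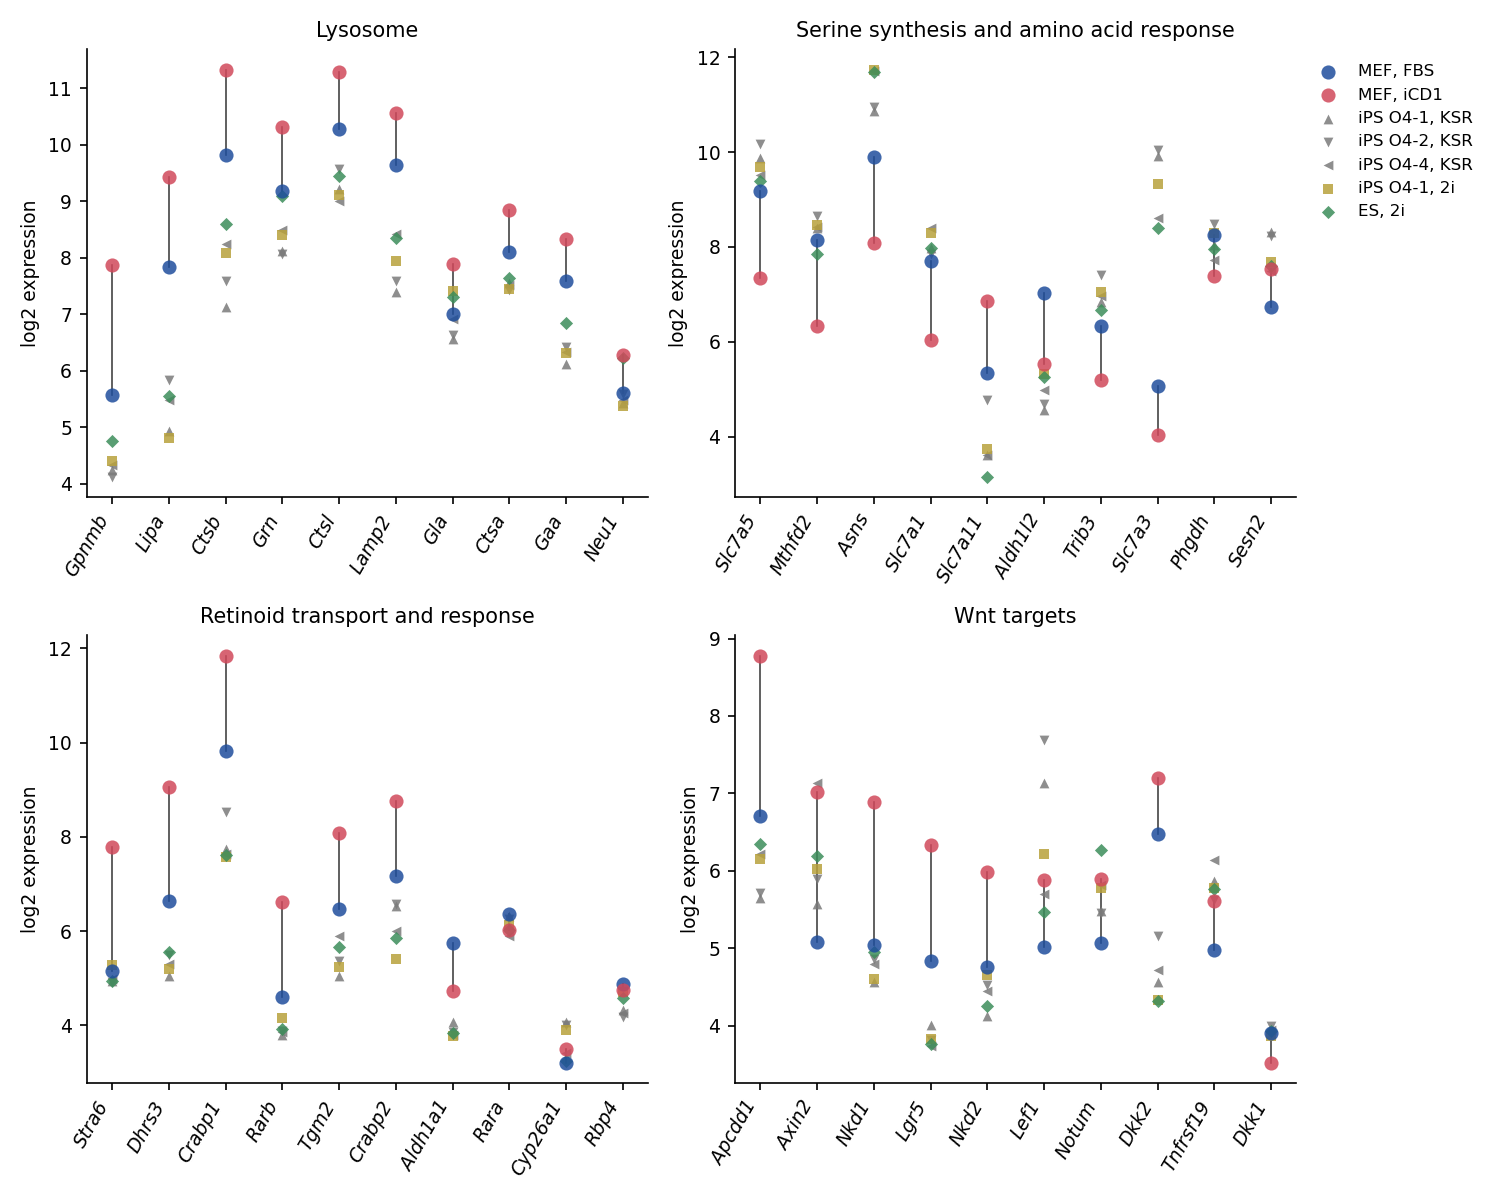
Log2 expression on all 7 arrays of the 10 genes with the largest difference between media in each of 4 lists; a line joins the FBS (blue) and iCD1 (red) fibroblasts. Lysosomal genes were higher in iCD1 throughout, genes of the amino acid response were mostly lower with Slc7a11 and Sesn2 as the exceptions, and the largest retinoid and Wnt differences were upwards.

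Genes that handle retinoids were among the largest differences. Retinoids, the active forms of vitamin A, enter cells through Stra6, are carried by Crabp1 and Crabp2, are reduced for storage by Dhrs3, and act through receptors such as Rarb. Of 15 genes 6 were 2-fold or more higher in iCD1 and 1 was lower, although the median of the list was 0.11. With only genes whose mean over all 7 arrays reached the median level, the median of this list was 1.61. That mean includes the iCD1 array, so members high in iCD1 alone could pass, and this value is no separate support. Stra6 was at 5.16 in FBS and 7.79 in iCD1, with 4.93, 4.91, 4.98, 5.29 and 4.94 on the pluripotent arrays, a 6.20-fold difference that took it out of their range. Dhrs3 was at 6.63 in FBS and 9.06 in iCD1, a 5.38-fold difference, and between 5.05 and 5.56 on the pluripotent arrays. Crabp1 was 4.04-fold higher, from 9.83 to 11.84, Crabp2 3.02-fold, from 7.18 to 8.77, and the transglutaminase gene Tgm2 3.07-fold. Rarb was at 4.61 in FBS and 6.62 in iCD1, with 3.80, 3.88, 3.86, 4.15 and 3.92 on the pluripotent arrays, a 4.02-fold difference. The other receptor genes differed less, with Rara at 6.36 and 6.02 and Rarg at 7.27 and 7.37. Cyp26a1, which degrades retinoic acid, was at 3.21 and 3.50. Of the enzymes that make retinoic acid Aldh1a1 was 2.03-fold lower and Aldh1a2 was at 5.75 and 5.78.

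Retinoic acid receptors bind a pair of half-sites. The form searched here, GTTCA, then 6 bases of any kind, then GTTCA, on both strands, stood in the 250 bases before the start of 0.0777% of all genes, 21 in number, and 2 of these were among the 11 retinoid genes with a promoter entry, Rarb and Cyp26a1. Both are shown because they carry the same kind of element and differed by unequal amounts, with capitals for the element (on the opposite strand in Cyp26a1).
Rarb: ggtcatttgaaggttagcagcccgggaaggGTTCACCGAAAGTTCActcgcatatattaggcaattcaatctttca
Cyp26a1: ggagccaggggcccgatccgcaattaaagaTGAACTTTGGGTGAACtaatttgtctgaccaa
They lie at chr14:16575483-16575558 on the minus strand and chr19:37697746-37697807 on the plus strand. Rarb was 2.01 higher on the log2 scale and Cyp26a1 0.29, with the range over KSR lines at 0.08 for Rarb and 0.65 for Cyp26a1.

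Targets of the Wnt pathway, which acts through beta-catenin, were mostly higher in iCD1. Of 16 genes 13 were higher and 3 lower, 5 were 2-fold or more higher and 0 lower, and the median was 0.68 against 0.10, 0.19 and 0.09 for the KSR pairs. Axin2, the most general target and a feedback inhibitor, was at 5.08 in FBS and 7.02 in iCD1, with 5.57, 5.89, 7.13, 6.02 and 6.19 on the pluripotent arrays. It was 3.83-fold higher in iCD1, and its level passed from below all 5 pluripotent arrays into their range, just under line O4-4. Of the 16 genes 11 lay farther from every pluripotent array in iCD1, 3 lay closer and 2, Axin2 among them, did neither. Over all genes 34.9% lay farther and 23.6% closer. The Wnt inhibitor gene Apcdd1 was at 6.71 in FBS and 8.78 in iCD1, and between 5.64 and 6.34 on the pluripotent arrays. The feedback genes Nkd1 and Nkd2 were 3.61-fold and 2.33-fold higher, and Lgr5, a receptor of R-spondins, 2.84-fold, from 4.83 to 6.33. Lef1, a transcription factor of the pathway, was at 5.01 and 5.88, and Dkk1, a secreted antagonist, was at 3.91 and 3.52. The pathway's motif CTTTGAT, searched on both strands, stood in the window of 3.72% of all genes and of 2 of 10 listed genes with an entry, Sp5 and Tnfrsf19.

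Ligands and antagonists of BMP and activin differed in both directions. Bmp2 was at 4.55 in FBS and 7.14 in iCD1, with 3.15, 3.08, 3.37, 3.22 and 3.42 on the pluripotent arrays, a 6.05-fold difference. Bmp5 was 2.86-fold and the activin chain gene Inhbb 2.11-fold higher. Fst, which encodes follistatin, the binder that holds activin, was at 8.91 in FBS and 6.47 in iCD1, a 5.44-fold difference, and the activin chain gene Inhba was 3.47-fold and the BMP binder gene Bmper 2.81-fold lower. Of 15 TGF-beta target genes 2 were higher and 2 lower by 2-fold or more, together 26.7% beside 2.7% of all genes. Tgfbi was 3.04-fold higher and the feedback inhibitor gene Smad7 was at 8.01 and 7.03. Of 31 growth factor genes Fgf7 and Hbegf (2.22-fold) were the only members past 2-fold, both lower, which is 6.45% beside 2.7% of all genes. In the insulin-like growth factor system the protease gene Pappa was 3.76-fold and the binding protein gene Igfbp7 2.54-fold lower, and Igf2r, Igfbp4 and Irs1 were 2.41-fold, 2.29-fold and 2.16-fold higher. A second probe set of Irs1 differed by 0.24. Igf2 was at 10.95 and 10.97.

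Several immediate early genes, which respond quickly to growth factors, were higher in iCD1. Of 19 measured 12 were higher and 7 lower, 4 higher and 1 lower by at least 2-fold, with a median of 0.28 against 0.23, 0.13 and -0.06 for the KSR pairs. Fosb was at 7.49 in FBS and 9.23 in iCD1, Fos at 7.86 and 9.37, Jun at 8.70 and 10.23 and the phosphatase gene Dusp1 at 9.48 and 10.52, which made them 3.34-fold, 2.84-fold, 2.90-fold and 2.06-fold higher. In iCD1 these 4 lay above all 5 pluripotent arrays. Myc, which drives growth and ribosome production, went the other way. It was at 8.28 in FBS and 6.58 in iCD1, and between 5.46 and 7.02 on the pluripotent arrays, a 3.24-fold difference that brought it into their range. Of 13 feedback genes of the ERK pathway 0 differed by 2-fold, beside 2.7% of all genes, with Spry4 at 5.46 and 4.88 and Dusp6 at 8.37 and 8.26. Of 10 Notch pathway genes Hes1 was 2.34-fold lower and Notch3 2.03-fold higher. None of 6 Hedgehog genes was past 2-fold, beside 2.7% of all genes, with Hhip at 4.81 and 5.74.

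Genes of lipid synthesis were higher in iCD1. All 20 measured genes of cholesterol synthesis and uptake were higher, with a median of 0.48, but that median lay close to one of the KSR pairs (0.19, 0.42 and 0.14) and 1 gene passed 2-fold. This was Tm7sf2, a sterol reductase gene, at 6.43 in FBS, 8.01 in iCD1 and 6.25, 6.76, 6.77, 7.12 and 7.65 on the pluripotent arrays. Hmgcs1, an early enzyme of the pathway, was at 8.98 and 9.57, Fdft1 at 8.94 and 9.73 and Cyp51 at 7.87 and 8.63. The sterol element TCACNCCAC, searched on both strands, stood in the window of 1.22% of all genes and of 1 of 16 genes of this list with an entry, Hmgcs1. The desaturase genes Scd1 and Scd2 were 2.97-fold and 2.18-fold higher and Acss2, which makes acetyl-CoA from acetate, 2.07-fold. Among 13 fatty acid genes 10 were higher, with a median of 0.47 inside the span of the KSR pairs (0.30, 0.66 and 0.37). The cholesterol exporter gene Abca1, which oxysterols switch on through LXR, was 2.33-fold higher, at 5.96 in FBS and 7.18 in iCD1.

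Genes for making and importing amino acids were mostly lower. The factor ATF4 drives this group when amino acids are short. Of 28 such genes, with serine synthesis included, 22 were lower and 6 higher in iCD1, 7 lower and 1 higher ones past 2-fold, with a median of -0.57 against 0.26, 0.01 and -0.43 for the KSR pairs. Asns, which makes asparagine, was at 9.89 in FBS and 8.09 in iCD1, with 10.86, 10.96, 11.71, 11.74 and 11.69 on the pluripotent arrays, a 3.48-fold difference away from them. Slc7a5, which imports large neutral amino acids, was at 9.18 in FBS and 7.35 in iCD1, and between 9.39 and 10.16 on the pluripotent arrays. Mthfd2, a mitochondrial folate enzyme, was 3.52-fold lower, the arginine importer gene Slc7a1 3.15-fold, Aldh1l2 2.83-fold, the ATF4 feedback gene Trib3 2.19-fold and Slc7a3 2.05-fold. Atf4 was at 6.97 in FBS and 6.32 in iCD1, and the serine enzyme genes Phgdh, Psat1 and Psph were at 8.26 and 7.38, 8.61 and 8.11, and 5.79 and 5.57. Slc7a11, which imports cystine in exchange for glutamate, was the 1 gene past 2-fold upwards. It was at 5.35 in FBS and 6.85 in iCD1, with 3.62, 4.76, 3.61, 3.74 and 3.16 on the pluripotent arrays, a 2.84-fold difference upwards.

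The element TGATGNAA, bound by ATF4 with its partners and searched on both strands, stood in the window of 3.91% of all genes and of 6 of 23 listed genes with an entry, namely Asns, Chac1, Nupr1, Pck2, Slc7a11 and Vldlr. Asns and Slc7a11 are shown because they carry the element and differed in opposite directions, with the element in capitals. Slc7a11 had it on both strands, and its copy nearer the gene start, TTGCATCA, is in lower case here.
Asns: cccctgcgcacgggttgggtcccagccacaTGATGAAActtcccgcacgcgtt
Slc7a11: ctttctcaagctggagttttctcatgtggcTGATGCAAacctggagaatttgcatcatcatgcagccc
They lie on the minus strand at chr6:7693210-7693262 and chr3:50443642-50443709. Among the others, Nupr1 and Chac1 were 1.34-fold and 1.41-fold lower in iCD1 and Vldlr 1.29-fold higher.

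Genes of tRNA charging were lower too. Of 18 cytosolic tRNA synthetase genes 17 were lower in iCD1, 0 by 2-fold, beside 53% lower and 2.7% past 2-fold of all genes. Their median was -0.56 against 0.12, 0.03 and -0.14 for the KSR pairs. For 17 of them the difference exceeded the range of the KSR lines, beside 36.3% of all genes. In iCD1 16 lay farther from every pluripotent array, beside 34.9% of all genes. Wars, for tryptophan, was at 7.98 in FBS and 7.14 in iCD1 and Gars, for glycine, at 9.54 and 8.80, while Qars, for glutamine, was the exception at 8.99 and 9.41. A list of ribosome biogenesis genes was drawn up after several of its members had been seen to be lower, so its counts are a description of that choice. All 42 measured genes of it were lower and all lay farther from the pluripotent arrays, 7 by 2-fold or more, with a median of -0.64 against -0.17, -0.11 and 0.02 for the KSR pairs. Ddx21, a nucleolar RNA helicase gene, was at 8.89 in FBS and 7.52 in iCD1, with 10.24, 9.97, 10.09, 9.80 and 9.55 on the pluripotent arrays. Rrs1 was 2.52-fold, Wdr43 2.27-fold, Mphosph10 2.20-fold and Mybbp1a 2.19-fold lower. In a polyamine list chosen in the same way, the synthesis genes Odc1 and Srm were 2.02-fold and 2.14-fold lower, and Smox and Sat1, which break polyamines down, were at 5.78 and 6.75 and at 7.64 and 8.17. The host gene of the miR-17 cluster, Mir17hg, was at 4.63 in FBS and 3.57 in iCD1, with 5.73 to 7.05 on the pluripotent arrays. Mature microRNAs were not measured.

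Glycolysis, iron and metal genes differed in a few members. Of 26 genes of glycolysis and hypoxia 20 were lower and 4 passed 2-fold, and the median of -0.30 lay within the span of the KSR pairs (0.33, -0.30 and -0.50). Adm, a hypoxia-induced peptide, was 3.08-fold lower, the collagen hydroxylase gene P4ha2 2.35-fold, the lactate exporter gene Slc16a3 2.27-fold and the glucose importer gene Slc2a1 2.16-fold, of which Adm and P4ha2 exceeded the KSR range. Tfrc, the transferrin receptor that brings iron into cells, was at 8.46 in FBS and 6.19 in iCD1, with 9.56, 9.53, 9.85, 9.36 and 10.02 on the pluripotent arrays, a 4.83-fold difference away from them. The ferritin genes Fth1 and Ftl1 were at 11.27 and 11.73 and at 11.86 and 12.13. The metallothionein genes Mt1 and Mt2 were 2.65-fold and 2.18-fold higher, and Selenop, a selenium carrier, 2.04-fold.

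Genes of DNA replication and mitosis were mostly slightly lower. Of 25 DNA replication genes 19 were lower in iCD1, none by 2-fold, beside 53% lower and 2.7% past 2-fold of all genes. Their median was -0.23 against -0.14, 0.13 and 0.25 for the KSR pairs. Of 23 mitosis genes 16 were lower, none by 2-fold, with a median of -0.10 against -0.02, 0.06 and 0.17. In size both medians lay within those of the pairs. The difference exceeded the range of the KSR lines for 11 of the 25 and 8 of the 23, beside 36.3% of all genes. Mcm5, a subunit of the replicative helicase, was at 7.72 in FBS and 7.26 in iCD1, with 8.94 to 9.11 on the pluripotent arrays, and Mki67 was at 8.46 and 8.32. Of 21 p53 targets and CDK inhibitors in a joint list 16 were higher and 5 lower, 2 higher by 2-fold. Their median was 0.32 against 0.13, -0.32 and -0.40 for the KSR pairs. The sign of a KSR pair depends on the order of its lines, and in size 0.32 lay within that of the pairs. For 9 of the 21 the difference exceeded the range of the KSR lines, beside 36.3% of all genes. The CDK inhibitor gene Cdkn1c, which is imprinted, was at 7.95 in FBS and 9.67 in iCD1, with 5.97, 6.75, 5.96, 5.72 and 5.99 on the pluripotent arrays, a 3.29-fold difference. Cdkn2a, a barrier to reprogramming, was at 6.15 and 6.88, Cdkn2b at 7.69 and 8.37 and the p53 target gene Mdm2 at 9.01 and 9.40. None of the 21 lay closer to every pluripotent array in iCD1, 13 lay farther and 8 did neither. Over all genes 23.6% lay closer and 34.9% farther.

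Chemokine and cytokine genes were mostly lower and interferon genes slightly higher. Of 35 chemokine and cytokine genes 26 were lower in iCD1, 8 of them by 2-fold, and 2 were 2-fold higher, with a median of -0.24 against 0.12, 0.12 and -0.11 for the KSR pairs. Members of this list at or above the median level had a median of -0.73. That level was the mean over all arrays, the FBS array included. Members high in FBS alone could thus pass, and this value is no separate support. Ppbp was 5.08-fold lower, Cxcl14 3.22-fold, the homing signal gene Cxcl12 2.76-fold, the prostaglandin synthase gene Ptgs2 2.63-fold and the monocyte attractant gene Ccl2 2.17-fold. Il6 was at 3.41 in FBS and 1.82 in iCD1, near the bottom of the scale. Ccl8 was at 2.79 and 5.29 and the alarmin gene Il33 at 4.31 and 5.73. Of 24 genes of interferon response and antigen presentation 20 were higher, none by 2-fold, beside 44.8% higher and 2.7% past 2-fold of all genes. Their median was 0.31 against -0.07, 0.21 and 0.25 for the KSR pairs. For 6 of the 24 the difference exceeded the range of the KSR lines, beside 36.3% of all genes. Clu, which encodes the secreted chaperone clusterin, was 2.46-fold higher.

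Pluripotency genes were low in both media. Of 29 genes 20 were lower and 9 higher, and 0 differed by 2-fold in either direction, beside 2.7% of all genes. The median of -0.23 lay within the span of the KSR pairs (-0.27, 0.17 and 0.41). Pou5f1 was at 3.40 in FBS and 4.04 in iCD1, against 10.99, 10.99, 10.61, 10.77 and 10.66 on the pluripotent arrays. Nanog was at 5.35 and 5.02, against 9.94 to 11.55, and Sox2 at 5.21 and 5.27, against 9.97 to 10.23. Klf4, which fibroblasts also express, was at 7.68 and 7.17. Epithelial adhesion genes, which come up early in reprogramming, were likewise not raised as a list, with 9 of 21 higher and a median of -0.12. Cdh1, which encodes E-cadherin, was at 4.35 in FBS and 4.17 in iCD1, against 8.77 to 9.28, and Epcam was at 3.76 and 4.37, against 7.67 to 8.89. Dsp, which encodes desmoplakin, was an exception at 5.07 and 6.69, with 6.04 to 7.06 on the pluripotent arrays, while Krt7 and the plakophilin gene Pkp2 were 3.28-fold and 2.14-fold lower. Of 17 histone lysine demethylase genes none differed by 2-fold, and of 37 Hox genes 1 did, Hoxc5, at 6.32 and 7.51. Over all genes 2.7% did, so these counts do not set the families apart.

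**Figure D4:**
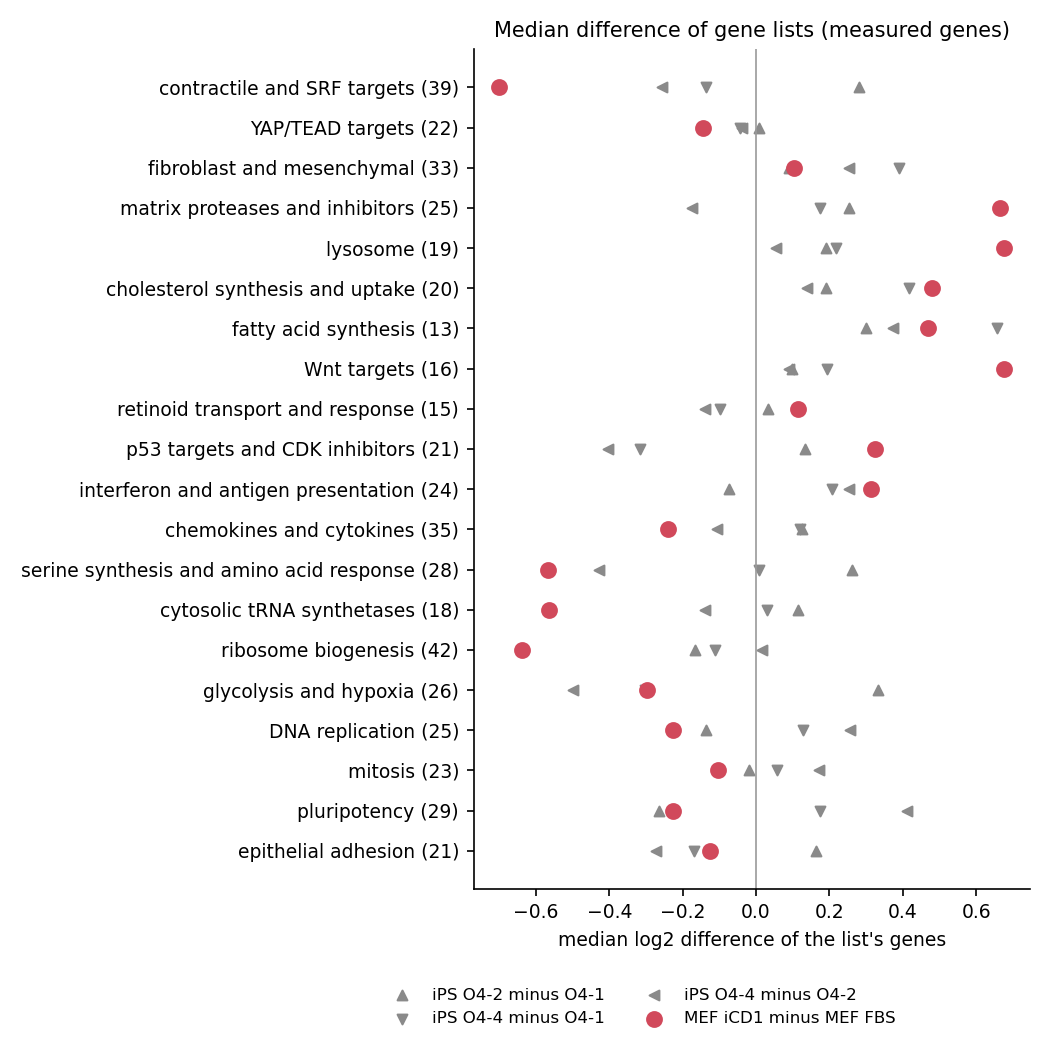
Median log2 difference of 20 gene lists for MEFs in iCD1 against FBS (red) and for the 3 pairs of KSR iPS lines (grey), with the number of measured genes in brackets. Contractile genes (-0.70), tRNA synthetases (-0.56), lysosomal genes (0.68) and Wnt targets (0.68) lay outside the span of the KSR pairs, whereas glycolysis, fatty acid synthesis and pluripotency lay inside it.

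Across all genes past 2-fold, iCD1 placed more of them farther from the pluripotent arrays than closer. A gene was called closer when its level in iCD1 was nearer than its level in FBS to each of the 5 pluripotent arrays, farther in the opposite case and mixed otherwise. Of the 538 genes, 153 were closer (28.4%), 299 farther (55.6%) and 86 mixed, which are 0.767%, 1.5% and 0.431% of all genes. At any size of difference 23.6% of all genes were closer, 34.9% farther and 41.5% mixed. Of the 339 genes higher in iCD1, 30 were closer and 258 farther (76.1%), and of the 199 lower genes 123 were closer (61.8%) and 41 farther. The classes were taken from the same values of both MEF arrays that the 2-fold cut used. A gene high in iCD1 alone counts as farther and a gene high in FBS alone as closer. Genes past 2-fold were also mixed less often, at 16% beside 41.5% of all genes. These shares are thus a description only.

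**Figure D5:**
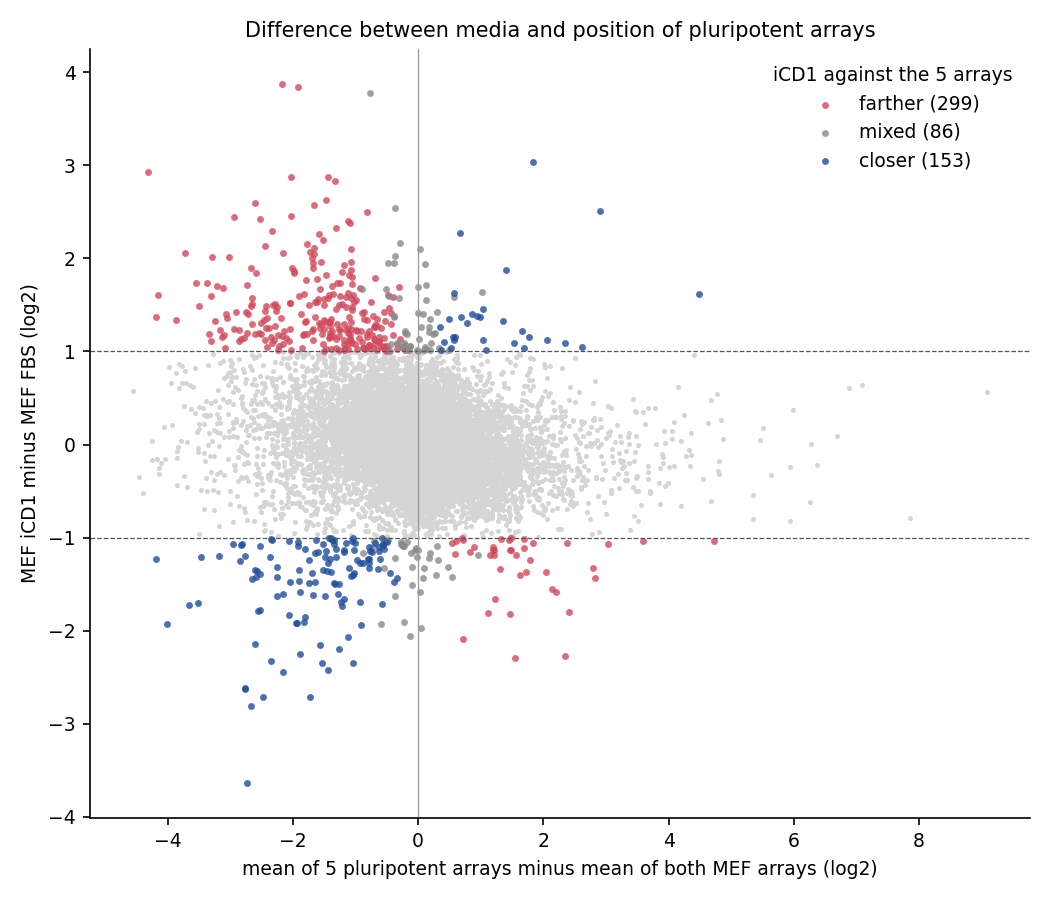
Each point is a gene, with the mean of the 5 pluripotent arrays minus the mean of both MEF arrays on the horizontal axis and iCD1 minus FBS on the vertical axis, both in log2 units; dashed lines mark 2-fold. Of genes past 2-fold, 299 lay farther from the pluripotent arrays in iCD1 (red), 153 closer (blue) and 86 were mixed (grey).

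A smaller number of genes crossed into or out of the span of the pluripotent arrays. In iCD1 81 of the 538 genes lay within the range of the 5 arrays and had been outside it in FBS, and 101 had been within it in FBS and lay outside it in iCD1, which are 15.1% and 18.8% beside 12.4% and 15.6% of all genes. Of those that came in, 51 were lower and 30 higher in iCD1. The largest were Car2, which was at 3.10 in FBS and 6.14 in iCD1 with 7.37, 8.07, 5.21, 5.17 and 6.45 on the pluripotent arrays, followed by Cnn1, Adamts5, Tagln, Sorbs2, Anxa8 and the chemokine gene Ppbp. Nefl, a neurofilament gene, came in from below to 6.47, against 5.51 to 6.54, and Gjb2 and Rspo2 completed the first 10. Of those that left, 83 were higher in iCD1 and 18 lower. They were led by Lum, Cadps, Dpt, Lix1, Dcn, Stra6, Cpm, Car3, Lratd1 and Tmem132c, all of them higher. Tmem132c was at 5.21 in FBS and 7.60 in iCD1, while the pluripotent arrays ran only from 5.18 to 5.44. Apela went towards the pluripotent arrays without reaching them, at 3.27 in FBS, 5.78 in iCD1 and 7.87, 7.98, 6.84, 6.84 and 7.64 on the 5 arrays.

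Where a gene past 2-fold had more than 1 probe set with its symbol, the others mostly gave the same direction. There were 20 such genes with 26 further probe sets, of which 24 differed in the same direction, 10 of them by 2-fold or more, and 2 in the opposite one, for Apobec3 and Dnah7b. The 5 further probe sets of the matrix protease gene Adamts9 differed by 1.00 to 2.05, beside 1.22 for the one used. Set beside each other, the mean of the KSR lines differed by 2-fold or more from FBS fibroblasts in 3138 genes and from iCD1 fibroblasts in 3701 genes, counts that share the KSR arrays.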

How the data were processed

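RNA of 7 mouse cultures was measured on 7 Affymetrix arrays from 100 ng of total RNA each, per the labels' protocols. The authors deposited log2 expression of probe sets, for which the submitters' processing notes name RMA and Partek; no source used here states settings or versions. The arrays had medians of 4.97 to 5.03 and no 2 held identical values. Values were used as deposited, with no filter and no detection call, so low values are not separated from background. Of 28853 probe sets 23410 were named by the platform annotation, 21789 with 1 symbol, 1621 with several (not used) and 5443 unnamed here; 21698 matched a gene ID of RefSeq GRCm38.p6. In 999 genes several probe sets shared a symbol, and that with the highest mean of the 7 arrays stood for the gene, which gave 19938 genes.

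Groups came from titles and growth conditions. The source names of the iPS samples name iCD1 and that of the ES sample names fibroblasts. Differences were computed as iCD1 minus FBS with Python 3.11.15, pandas 2.3.3 and numpy 2.4.6, and counted at 2-fold without any p-value. The code was tested on simulated data. The 53 gene lists (1075 entries, 73 not measured, 20 found by synonym) and all members were chosen with earlier results of these data known, and 2 lists, ribosome biogenesis and polyamine, after values were seen. Genes named were list members, the 20 largest differences in each direction, where the higher value reached that array's median, and the 10 largest among genes that came into or left the pluripotent range; Srf targets, Mir17hg and genes with several probe sets or next to the threshold were named beside their counts after values were seen. Promoter sequences are RefSeq's, build GRCm38.p6, with up to 30 bases shown on each side of a motif. Normalization, probe set choice, filter, threshold and left-out KSR lines were varied, with a loess fit from statsmodels 0.14.6.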

Additional observations from a re-analysis of the deposited data

How the results depend on the processing

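Scaling did not move the counts by more than 1.5 times. Subtracting each array's median, quantile normalization, a loess fit on both MEF arrays and averaging the probe sets of a gene gave 330 to 348 genes higher and 194 to 203 lower by 2-fold, with 151 to 157 closer and 295 to 299 farther. With genes at or above the median level alone the counts were 183 higher, 119 lower, 91 closer, 167 farther and 277 above the KSR range, which follows from testing fewer genes. The level was the mean over all arrays, both MEF arrays included, so genes high in a single medium could pass this filter. At 1.5-fold they were 1121, 926, 514, 1028 and 1795, and at 3-fold 93, 51, 43, 80 and 139. Without each KSR line in turn 156 to 158 were closer, 303 to 305 farther and 511 to 535 above the range of the remaining lines. With distance taken to the mean of the 5 pluripotent arrays 197 were closer and 341 farther. Of the 12 main lists, mitosis moved by more than its spread over KSR lines, to a median of -0.12 after quantile normalization and -0.11 after loess, and no main list reversed. Of the other lists, these reversed: BMP and activin (-0.0034) and selenoproteins (-0.0023) after quantile normalization, and, with genes at or above the median level, small leucine-rich proteoglycans (0.57), Notch (0.0686), Hox (-0.0388) and skeletal muscle markers (-0.33). With that filter other medians went to 1.61 for retinoids, -0.73 for chemokines and cytokines, 0.72 for LXR targets, 0.75 for PPAR targets and -0.04 for macrophage markers, and after quantile normalization or loess Hox had 0.0863 or 0.0950 and endothelial markers -0.18 or -0.17; the cause was not tested. No paired analysis was possible because each medium has 1 array. A lone array per medium leaves the spread between cultures unknown, and no signal over background was given for low values.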
